A study of Mus musculus with 7 samples.

Results

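Cytochrome P450 families 1 to 4 hold many enzymes with which a mouse oxidizes drugs, steroids and fatty acids. Expression of 54 of their genes was examined in embryonic stem (ES) cells, in 3 germ layers made from them and in 3 adult tissues. The genes were chosen by symbol alone, as every gene of the array annotation whose symbol is Cyp, a family number from 1 to 4, a letter and a number, and they are 54 of the 18194 genes with a probe set of their own. Of 74 protein-coding RefSeq genes whose symbols have this form, 53 were measured, and the remaining member, Cyp2d13, is not listed as protein-coding there. RNA was hybridized to 7 Affymetrix arrays, 1 for each sample. SK7_ESC is the undifferentiated male SK7 line, a single ES cell line that carries a GFP reporter driven by the Pdx1 promoter. From SK7 the authors derived in culture an ectoderm (Ect), an endoderm (End) and a paraxial mesoderm (Pme), which carry the same transgene, and no agents or times of differentiation are given. The adult tissues, brain (Brain), liver (Liver) and skeletal muscle (Sk_muscle), were taken from male ICR mice with no treatment named, older than 9 weeks, and the number of mice behind each RNA is not given. The labels name the strain ICR and the male sex for all 7 samples.

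P450 enzymes carry a heme group that inserts 1 oxygen atom into a substrate, with electrons passed on by P450 reductase and cytochrome b5 in the endoplasmic reticulum. Families 1, 2 and 3 are known mainly for drugs, plant compounds, steroids and bile acids, and family 4 for the terminal carbon of fatty acids and leukotrienes. Hepatocytes are their best known site, where nuclear receptors and the aryl hydrocarbon receptor induce many of them, while some members work in brain, skin, lung, airway or vessel wall. Many lie in tandem arrays of closely related genes, so that a probe set of one may also bind transcripts of a neighbour, and this was not tested.

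The deposited values are linear signals, which the authors scaled globally to an average of 100 (in the files, the mean without the highest and lowest 2% of probe sets). Signals below 50 count as background here. "Higher" means a signal of at least 50 that is also at least 2 times the brightest signal in the arrays compared. Before the ratio is taken, dim signals are raised to 50, and such a ratio is a lower bound, written "at least". With 1 array a group there is no spread between replicates, so no test was possible, and differences are described by size and set beside the share of all genes called the same way. Probe sets differ in brightness, so a signal is compared only between arrays and not between genes.

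The RefSeq promoter sequences (GRCm38.p6) of 6 members are shown because these genes stand for the patterns described further on, namely Liver (Cyp1a2, Cyp2e1 and Cyp3a11), Pme and Ect (Cyp1b1), SK7_ESC (Cyp2s1) and Brain (Cyp2j9). Each is the 250 bases before the annotated start, written 5′ to 3′ on the strand of the gene. Capitals mark exact matches to TATAAA (the TATA box), CAAAGTCCA (a site of the liver factor HNF4), AGGTCA (a nuclear receptor site) or GCGTG (the core of the aryl hydrocarbon receptor site), searched on both strands, and in Cyp1b1 the core reads CACGC because it lies on the opposite strand.
Cyp1a2, chr9:57683656-57683905, - strand: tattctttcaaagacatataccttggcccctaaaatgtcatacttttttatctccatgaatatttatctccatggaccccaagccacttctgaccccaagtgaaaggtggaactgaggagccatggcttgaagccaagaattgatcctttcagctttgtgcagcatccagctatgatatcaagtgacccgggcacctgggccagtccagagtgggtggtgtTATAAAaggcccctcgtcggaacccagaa
Cyp2e1, chr7:140763569-140763818, + strand: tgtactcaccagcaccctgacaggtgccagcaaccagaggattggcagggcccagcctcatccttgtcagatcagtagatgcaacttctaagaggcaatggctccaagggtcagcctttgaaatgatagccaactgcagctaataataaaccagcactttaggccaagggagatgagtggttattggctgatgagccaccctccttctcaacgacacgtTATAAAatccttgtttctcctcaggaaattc
Cyp3a11, chr5:145879855-145880104, - strand: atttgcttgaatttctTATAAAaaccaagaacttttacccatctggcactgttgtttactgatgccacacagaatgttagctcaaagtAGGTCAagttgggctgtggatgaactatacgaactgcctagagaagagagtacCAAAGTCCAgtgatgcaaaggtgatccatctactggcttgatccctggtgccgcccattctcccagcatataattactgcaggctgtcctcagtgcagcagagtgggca
Cyp1b1, chr17:79715062-79715311, - strand: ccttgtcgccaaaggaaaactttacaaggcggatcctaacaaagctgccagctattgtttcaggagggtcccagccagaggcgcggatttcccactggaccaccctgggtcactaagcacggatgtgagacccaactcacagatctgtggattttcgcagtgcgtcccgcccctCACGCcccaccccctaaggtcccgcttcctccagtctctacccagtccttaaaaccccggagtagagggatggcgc
Cyp2s1, chr7:25816526-25816775, - strand: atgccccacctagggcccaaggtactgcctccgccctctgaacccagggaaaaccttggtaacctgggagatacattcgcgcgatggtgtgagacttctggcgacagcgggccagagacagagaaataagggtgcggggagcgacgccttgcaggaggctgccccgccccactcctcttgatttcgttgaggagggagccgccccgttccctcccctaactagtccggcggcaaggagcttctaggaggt
Cyp2j9, chr4:96591486-96591735, - strand: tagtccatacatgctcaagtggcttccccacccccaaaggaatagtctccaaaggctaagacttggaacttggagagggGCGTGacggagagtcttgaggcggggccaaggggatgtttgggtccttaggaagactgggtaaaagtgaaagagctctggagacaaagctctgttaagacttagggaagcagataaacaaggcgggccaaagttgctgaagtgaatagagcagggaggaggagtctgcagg

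In Cyp1a2 and Cyp2e1 the TATAAA match began 29 and 31 bases before the start. In Cyp3a11 the match to TATAAA lay 234 bases before the start, and matches to AGGTCA and CAAAGTCCA followed at 162 and 109. The CpG-rich end of the set was held by Cyp2s1, with 15 CpG dinucleotides in 250 bases, and Cyp1b1, with 12, against 2 in Cyp2e1, 2 in Cyp3a11, 3 in Cyp1a2 and 4 in Cyp2j9. No capitals appear in Cyp2s1, since none of the letters searched was in that stretch.

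These genes were detected mainly in Liver. Of the 54 members, 32 (59.3%) were above background in Liver, where the share over all genes was 43.0%. In the 6 other arrays the share of members was far below that of all genes. Brain had 5 members above background (9.26%, against 49.9% of all genes), Sk_muscle 4 (7.41%, against 43.3%), Pme 2 (3.70%, against 47.4%), SK7_ESC 1 (1.85%, against 44.4%), Ect 1 (1.85%, against 47.2%) and End 0 (against 45.6%). Over the 7 arrays together the shares were close, as 36 of 54 (66.7%) were above background in at least 1 array, beside 68.6% of all genes. Liver was the brightest array for 31 of those 36 (86.1%), while it was the brightest for 17.0% of all genes above background somewhere. Pme was the brightest array for 2 members, Brain for 2 and SK7_ESC for 1. Just 1 array carried 29 of the 36 members, and for 26 of the 29 that array was Liver. In such bulk RNA, fewer cells of a type and less RNA per cell cannot be told apart.

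**Figure D1:**
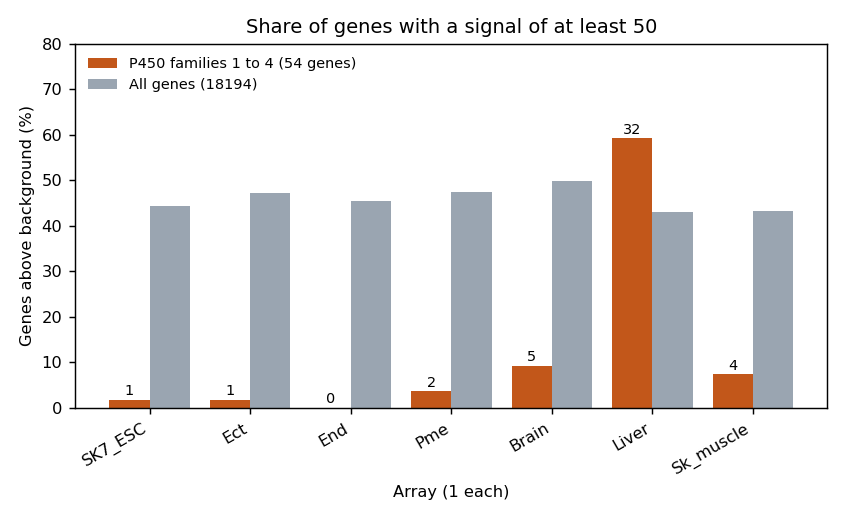
Percentage of genes with a signal of at least 50 in each of the 7 arrays, for the 54 P450 genes (orange, with the number of genes above each bar) and for all 18194 genes (grey). There is 1 array a group and hence no error bar. The members exceed all genes in Liver, with 32 genes, and reach at most 5 genes in any other array.

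Of the 54 members, 29 (53.7%) were called higher in Liver than in both Brain and Sk_muscle, where 7.71% of all genes were. Their Liver signals ran from 110.9 to 12960.0 with a median of 1101.3, and their ratios from 2.12 to at least 226. For 25 of them the 6 other arrays were all under background, so that the ratio is a lower bound, and the median of the ratios was at least 22.0. For 21 of the 29 the ratio was at least 10. Over all 54 members the median log2 ratio of Liver to the brighter of the other tissues was 1.85 (3.62-fold), and over all genes 0.00. In the 4 cultured samples 0 of the 29 were above background, and the highest signal any of them had there was 26.0. By family, 1 of 3 members of family 1 was called higher in Liver, 20 of 35 of family 2, 3 of 5 of family 3 and 5 of 11 of family 4.

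**Figure D2:**
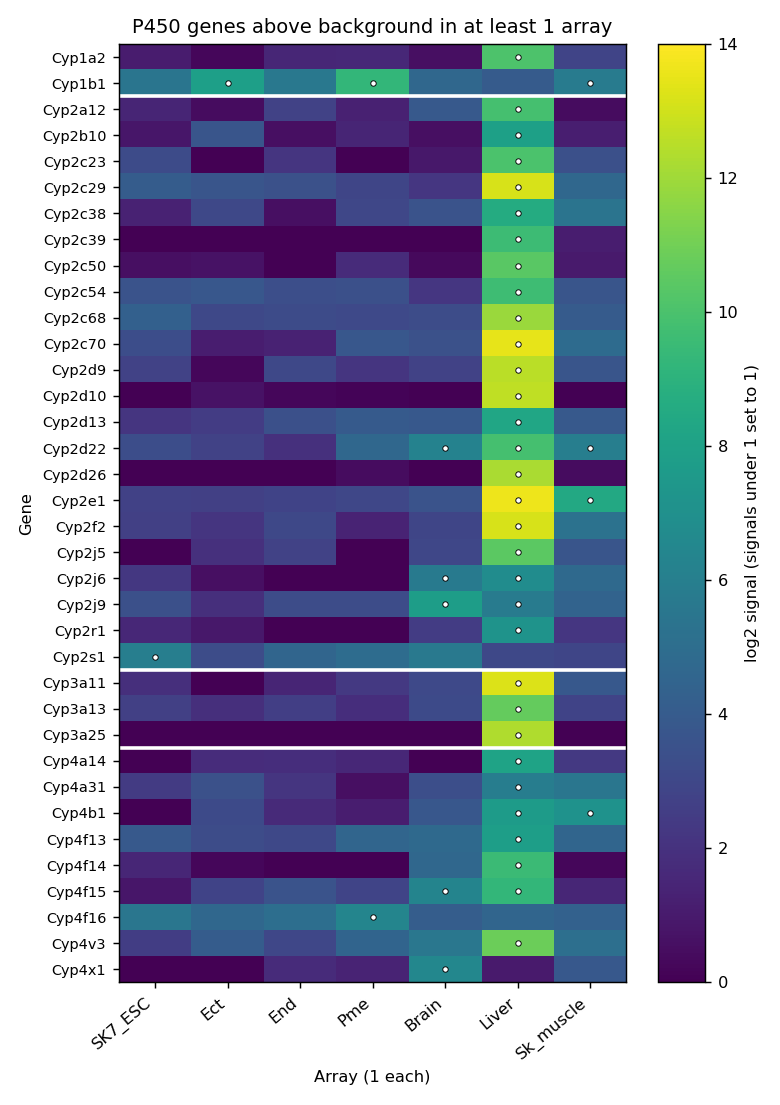
Log2 signal of the 36 members above background in at least 1 array (rows, families 1 to 4 separated by white lines) in the 7 arrays (columns), with signals under 1 set to 1. Dots mark signals of at least 50, and colours are to be compared along a row. Dots fill most of the Liver column, and the 4 columns of cultured cells hold 4 dots, of Cyp1b1, Cyp2s1 and Cyp4f16.

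Family 1 oxidizes planar aromatic molecules and is induced through the aryl hydrocarbon receptor. Its members Cyp1a2, which oxidizes caffeine and aromatic amines, and Cyp1a1, the more inducible neighbour, lie side by side on chromosome 9. The signal of Cyp1a2 was 1101.3 in Liver, 1.5 in Brain, 7.3 in Sk_muscle, and 2.1, 1.2, 2.8 and 2.9 in SK7_ESC, Ect, End and Pme, which made Liver at least 22.0-fold higher than the other tissues. Cyp1a1 stayed under background everywhere, with its highest signal, 24.4, in Liver and the rest between 0.7 and 9.8. Cyp1b1, the family member known from tissues other than liver, had only 16.3 in Liver and is described with the cultured cells.

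The Cyp2c subfamily, which oxidizes arachidonic acid, drugs and bile acids, was the largest group, and 8 of its 11 members were higher in Liver. Cyp2c70, which makes the muricholic acids, bile acids typical of mice, had 11287.5 in Liver, 11.0 in Brain and 29.2 in Sk_muscle, and 9.9, 2.2, 2.5 and 13.8 in SK7_ESC, Ect, End and Pme, so that Liver was at least 226-fold higher. Cyp2c29, an arachidonic acid epoxygenase, had 9080.3 in Liver, 4.7 in Brain and 25.4 in Sk_muscle, and 17.0, 12.8, 11.2 and 7.5 in SK7_ESC, Ect, End and Pme, a ratio of at least 182. Outside Liver both genes stayed under background. Cyp2c68 had 3748.4 in Liver and between 8.2 and 19.6 in the 6 other arrays, a ratio of at least 75.0. Cyp2c50 had 1373.4 in Liver and between 0.5 and 3.3 elsewhere, a ratio of at least 27.5. These genes too were under background in all arrays but Liver. Cyp2c23, Cyp2c54, Cyp2c39 and Cyp2c38 had Liver signals of 1045.0, 816.8, 783.4 and 389.4, and outside Liver the highest of their signals was 41.6, of Cyp2c38 in Sk_muscle. The 3 members not called, Cyp2c37, Cyp2c55 and Cyp2c65, had 17.2, 0.9 and 1.1 in Liver and were under background in all 7 arrays.

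Of the 8 Cyp2d genes, relatives of the human debrisoquine hydroxylase, 5 were higher in Liver. Cyp2d9, a testosterone hydroxylase with male-biased expression in mouse liver, had 6073.6 in Liver and 1.2 to 12.7 in the 6 other arrays, a ratio of at least 121. Cyp2d10 had 6366.6 in Liver and 0.6 to 1.6 elsewhere (at least 127), and Cyp2d26 had 4795.6 in Liver and 0.4 to 1.4 elsewhere (at least 95.9). Cyp2d13 had 312.0 in Liver with this probe set and 669.6 with its other one. All 4 were under background outside Liver, unlike Cyp2d22. That gene had 10 in SK7_ESC, 6.8 in Ect, 3.8 in End, 26.0 in Pme, 72.9 in Brain, 942.2 in Liver and 63.1 in Sk_muscle, so that it was above background in all 3 tissues and 12.9-fold higher in Liver than in Brain. Its second probe set gave 137.2 in Brain, 515.1 in Liver and 85.8 in Sk_muscle, the same order of Liver and Brain with a smaller gap. Cyp2d12, Cyp2d34 and Cyp2d40 were under background everywhere, with Liver signals of 17.9, 36.7 and 27.1 that were the highest of their 7 arrays.

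Among the remaining subfamilies of family 2, Cyp2e1, which oxidizes ethanol and acetaminophen, stood out by a signal in Sk_muscle. It had 6.6 in SK7_ESC, 6.2 in Ect, 7.1 in End, 7.8 in Pme, 12.0 in Brain, 12960.0 in Liver and 351.5 in Sk_muscle. Liver was 36.9-fold higher than Sk_muscle (23.2-fold after quantile normalization), and both stood above background. Cyp2f2, which activates naphthalene in airway and liver, had 9021.1 in Liver and 2.6 to 39.2 in the 6 other arrays, a ratio of at least 180. Cyp2a12, a steroid and bile acid hydroxylase, had 950.4 in Liver and at most 14.9 elsewhere (at least 19-fold). Cyp2b10, the classical target of the receptor CAR, had 251.3 in Liver and at most 13.0 elsewhere (at least 5.03), and its other probe sets gave 241.3 and 292.1 in Liver. The rest of the Cyp2b genes, Cyp2b9, Cyp2b13 and Cyp2b19, were under background in every array. Cyp2r1, a hydroxylase that starts the activation of vitamin D, had 143.7 in Liver and 0.4 to 5.6 elsewhere, a ratio of at least 2.87.

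All family 3 genes belong to Cyp3a, which oxidizes steroids and a broad range of drugs, and 3 of 5 were higher in Liver. Cyp3a11, the main target of the receptor PXR in mouse liver, had 9999.1 in Liver and 0.5 to 14.4 in the 6 other arrays, at least 200-fold higher. For Cyp3a25 the Liver signal was 5121.6 and the others 0.2 to 0.6 (at least 102), and for Cyp3a13 they were 1676.2 and 3.5 to 8.9 (at least 33.5). Nothing above background was seen for Cyp3a16 and Cyp3a44, whose Liver signals were 0.6 and 25.4.

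Family 4, whose members oxidize the end of fatty acid chains, had 5 of 11 members higher in Liver. Cyp4v3, the counterpart of a human retinal disease gene, had 1849.2 in Liver, 46.2 in Brain, 35.1 in Sk_muscle and 5.9 to 22.8 in culture, a ratio of at least 37.0. This probe set is marked as possibly shared, and the other one had 1000.2 in Liver and 26.8 in Brain, a ratio of at least 20. Of the Cyp4f genes, some of which inactivate leukotrienes, Cyp4f14 had 753.1 in Liver against 25.8 in Brain (at least 15.1), Cyp4f13 had 227.6 against 27.4 (at least 4.55), and Cyp4f15 had 613.2 against 78.8 (7.78-fold). Of these genes Cyp4f15 alone was above background in Brain. In the 4 cultures Cyp4f15 had 1.8 to 11.9 and in Sk_muscle 2.8. Cyp4a14, a fatty acid hydroxylase induced through PPAR alpha, had 279.8 in Liver and 0.9 to 5.1 elsewhere, a ratio of at least 5.60. Cyp4a31, a neighbour of Cyp4a14, had 61.3 in Liver and 45.7 in Sk_muscle and was not called. Cyp4b1, known from lung, had 202.4 in Liver, 141.2 in Sk_muscle, 14.0 in Brain and 0.8 to 9.0 in culture, and its ratio of 1.43 was under the limit.

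**Figure D3:**
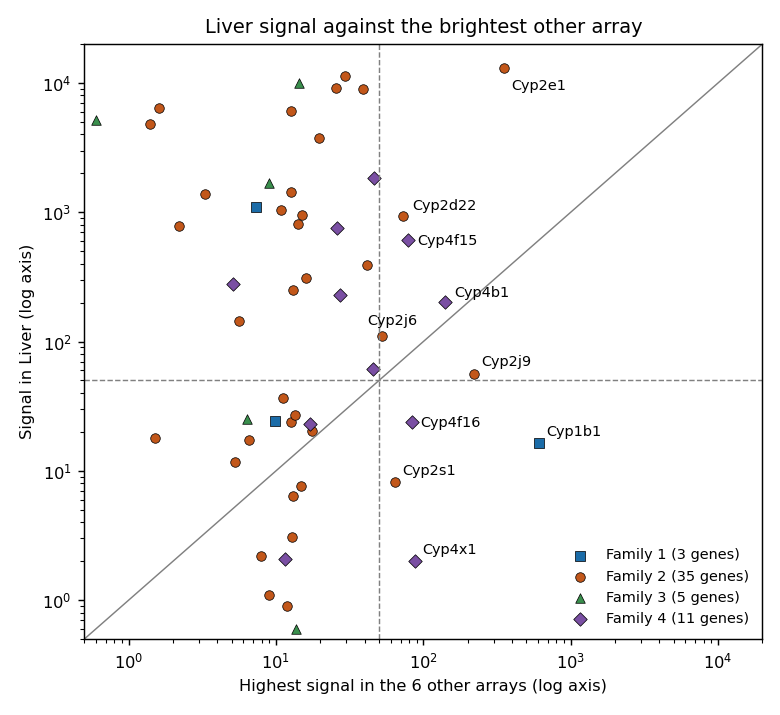
Signal of each of the 54 members in Liver (vertical, log axis) against its highest signal in the 6 other arrays (horizontal, log axis), by family. Dashed lines mark the background of 50 and the solid line equal signals. Most bright members sit at the upper left, above background in Liver alone, and Cyp1b1, Cyp2j9, Cyp4x1, Cyp4f16 and Cyp2s1 sit to the right of the solid line with a signal above background.

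Brain carried 5 members above background and 1 that was called higher there than in Liver and Sk_muscle (1.85% of members, where 10.9% of all genes were called). This was Cyp2j9, an arachidonic acid hydroxylase known from brain, with 220.8 in Brain, 56.6 in Liver, 22.3 in Sk_muscle, and 10.8, 3.7, 9.7 and 9.7 in SK7_ESC, Ect, End and Pme. Brain was 3.90-fold higher than Liver. Cyp4x1, an orphan P450 known from neurons, had 87.9 in Brain, 14.4 in Sk_muscle, 2.0 in Liver and 0.3 to 3.3 in culture, and with dim signals raised to 50 its ratio of at least 1.76 did not reach 2. With a background of 20, Cyp4x1 and Cyp2s1 were also called higher in Brain. Cyp2j6 had 4.8 in SK7_ESC, 1.5 in Ect, 0.8 in End, 0.9 in Pme, 52.3 in Brain, 110.9 in Liver and 27.6 in Sk_muscle, and its 2.12-fold excess in Liver was the smallest of the 29. With a background of 100 or a ratio of 3 neither Cyp2j6 nor Cyp2r1 was called in Liver. The second probe set of Cyp2j6 gave 49.5 in Brain, just under background, and 126.1 in Liver. With quantile normalization, equal medians or the probe set with the highest signal, Cyp2j6 was under background in Brain, which left 4 members there. The fellow subfamily member Cyp2j5 had no such Brain signal, with 1427.9 in Liver and 0.2 to 12.7 in the 6 other arrays (at least 28.6), or 4328.5 in Liver with its second probe set. Neighbouring Cyp2j genes thus differed in which tissue was the brightest. The hepatocyte markers Alb, Apob and Tat had 9.2, 2.6 and 4.0 in Brain, and 0 of 15 such markers were above background there.

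In Sk_muscle 0 members were called higher than in Brain and Liver, where 7.47% of all genes were, and 4 were above background, Cyp1b1 (57.0), Cyp2d22 (63.1), Cyp2e1 (351.5) and Cyp4b1 (141.2). Hepatocyte markers were also seen in this array. Of 15, 4 were above background, Alb with 303.9, Serpina1c with 210.5, Hpx with 137.0 and Fgg with 69.2, and their signals as a percentage of those in Liver ran from 0.116% to 2.54% over the list, with a median of 0.321%. The summed signal of the list was 1006.0 in Sk_muscle, 149948.3 in Liver and 79.1 to 209.4 in the other arrays. The Sk_muscle signal of Cyp2e1 was 2.71% of the Liver signal, close to the 2.54% of Alb, the highest marker. For Cyp2d22 it was 6.70%, from a signal near background. The 29 members higher in Liver had a median of 0.457% (0.0117% to 24.9%). Members under background in Sk_muscle also exceeded Alb, such as Cyp2j6 with 24.9%. Cyp4b1 had 141.2 in Sk_muscle beside 202.4 in Liver. Of 5 adipocyte markers, 3 were above background in Sk_muscle (Fabp4 with 6653.1, Adipoq with 688.2 and Retn with 121.4), Lep was at 0.6, and the summed signal was 7504.2 there, 358.4 in Liver and 13.0 to 34.8 elsewhere. The part of hepatocyte or adipocyte RNA in these 4 signals was not tested.

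**Figure D4:**
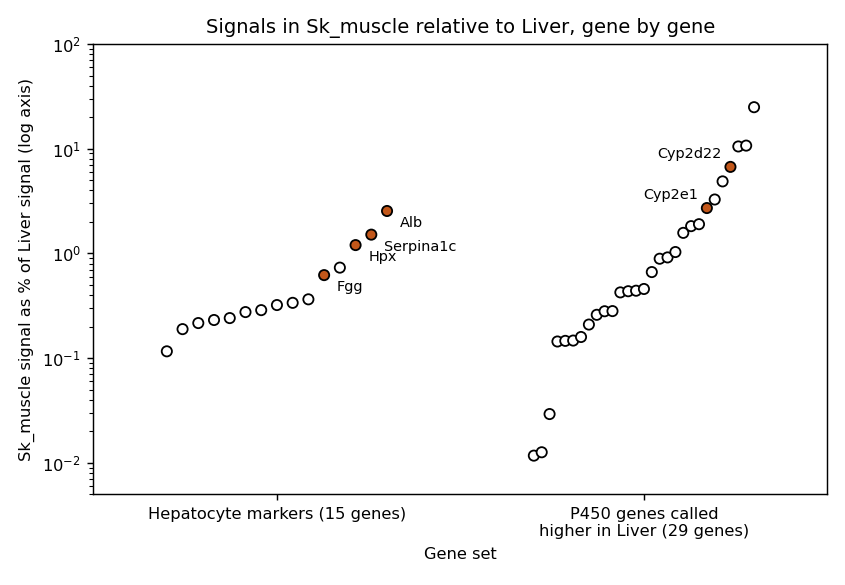
Signal in Sk_muscle as a percentage of the signal in Liver (log axis) for 15 hepatocyte markers and for the 29 members higher in Liver, each ordered by value. Filled points were above background in Sk_muscle. Cyp2e1 at 2.71% and Cyp2d22 at 6.70% lie above Alb, the highest hepatocyte marker, at 2.54%, and the open points rest on Sk_muscle signals under 50.

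In the cultured cells few of these genes were above background, and Cyp1b1 alone was called different from SK7_ESC. The 3 comparisons share the SK7_ESC array. Cyp1b1, which oxidizes estradiol, retinol and polycyclic aromatic compounds, had 43.0 in SK7_ESC, 238.0 in Ect, 48.0 in End, 608.7 in Pme, 25.5 in Brain, 16.3 in Liver and 57.0 in Sk_muscle. It was at least 4.76-fold higher in Ect and at least 12.2-fold higher in Pme than in SK7_ESC, and Pme was the brightest of the 7 arrays. A second probe set was also brightest in Pme and next in Ect, with 290.7 in Pme, 80 in Ect, 21.5 in SK7_ESC and 15.8 in End, whereas the remaining one was at most 9.6 in any array. With the geometric mean of the 3 probe sets as the value, Cyp1b1 was called in neither (ratios of 1.0 in Ect and 1.81 in Pme). The 1 member called higher in Ect and the 1 in Pme (1.85% each) stand beside 6.63% and 6.75% of all genes. In End 0 members were higher, beside 4.89% of all genes, and 0 had the signal of at least 50 that this call needs. Lower than in SK7_ESC were 0 members in Ect, End and Pme, beside 4.89%, 3.81% and 4.55% of all genes. A lower call needs at least 50 in SK7_ESC, which Cyp2s1 alone had, and its 63.9 could give a ratio of at most 1.28. These counts of 0 thus follow from the background rule.

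Fibroblast genes were higher beside Cyp1b1 in Pme and Ect, and Ahr in Pme. Against SK7_ESC, 6 of 8 fibroblast genes were higher in Pme, 3 in Ect and 1 in End, and their summed signal was 457.4 in SK7_ESC, 1773.1 in Ect, 389.6 in End, 6640.9 in Pme, 2154.8 in Brain, 2788.6 in Liver and 12652.9 in Sk_muscle, where Cyp1b1 had 57.0. Of these genes 3 were above background in SK7_ESC, 4 in Ect, 3 in End, 6 in Pme, 3 in Brain, 6 in Liver and 8 in Sk_muscle. Single genes carried much of some sums, with Thy1 at 1771.2 in Brain and Dcn at 951.1 in Ect, 2149.0 in Liver and 6503.7 in Sk_muscle. The summed signal was highest in Sk_muscle and the Cyp1b1 signal in Pme. Ahr, the aryl hydrocarbon receptor, had 50.9 in SK7_ESC, 67.0 in Ect, 53.7 in End, 174.1 in Pme, 60.3 in Brain, 258.3 in Liver and 46.8 in Sk_muscle. It was higher in Pme than in SK7_ESC, not called in Ect, and brightest in Liver, where Cyp1b1 was under background. Of 22 measured regulators of P450 genes, 3 were higher in Pme (Ahr, Dbp and Stat5b, beside 6.75% of all genes). In Ect 0 were higher, beside 6.63%. Nfe2l2 was lower in Ect and in Pme, beside 4.89% and 4.55% of all genes. Arnt, the partner of Ahr, had 260.1 in SK7_ESC, 146.6 in Ect and 202.6 in Pme, which is no call. The part of fibroblasts or of Ahr in the Cyp1b1 signal was not tested.

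The other members above background in culture were Cyp2s1 and Cyp4f16. Cyp2s1, a P450 of epithelia outside the liver, had 63.9 in SK7_ESC, 9.6 in Ect, 23.3 in End, 30.7 in Pme, 49.9 in Brain, 8.2 in Liver and 7.6 in Sk_muscle. SK7_ESC was its brightest array, and with dim signals raised to 50 the ratio of End to SK7_ESC was 0.782, which is no call. Brain, at 49.9, lay just under background. Cyp4f16 had 45.2 in SK7_ESC, 25.4 in Ect, 33.5 in End, 83.2 in Pme, 17.4 in Brain, 23.9 in Liver and 20 in Sk_muscle, and Pme was the only array above background, by less than 2 times the background. The second probe set of Cyp4f16 was under background in every array, with 24.6 in Pme and 23.5 in End. By the probe set used, Cyp4f16 thus had its brightest array in a culture, while Cyp4f13, Cyp4f14 and Cyp4f15 had theirs in Liver.

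**Figure D5:**
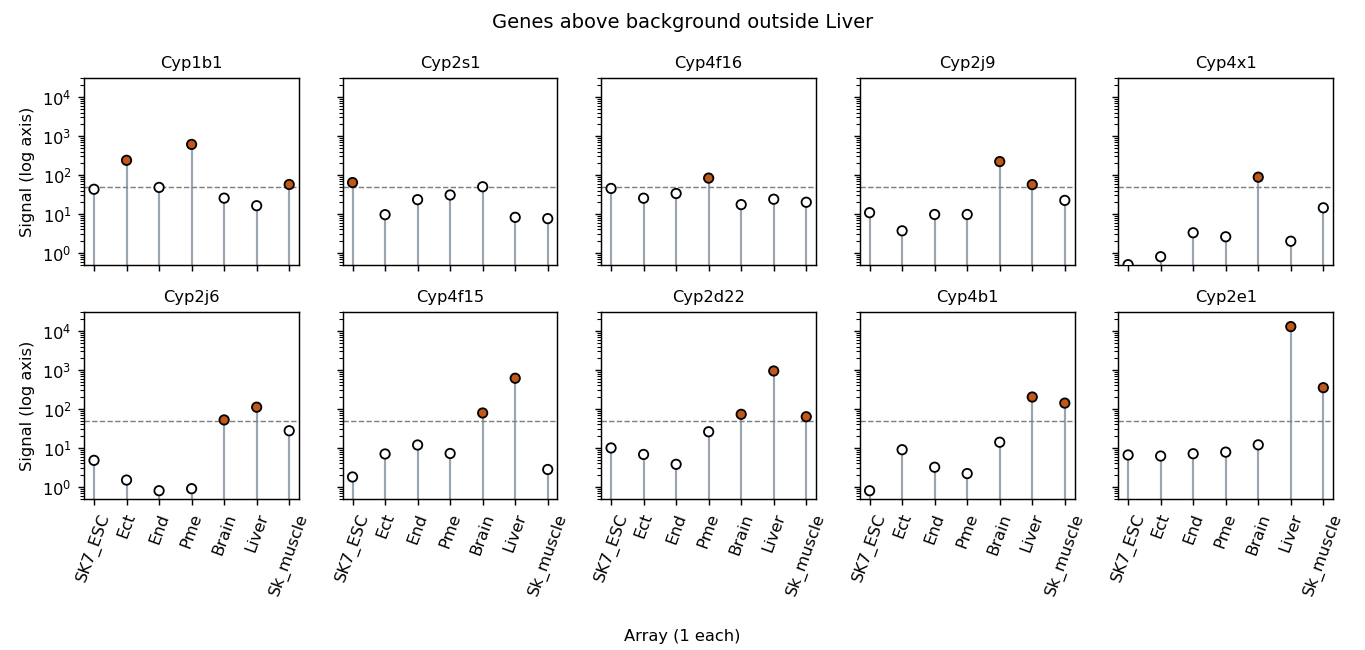
Signals (log axis) in the 7 arrays of the 10 members above background in at least 1 array other than Liver, with 1 point an array. Filled points are at least 50 (dashed line), and 1 value under 0.5, of Cyp4x1 in SK7_ESC, is drawn at 0.5. Cyp1b1 is highest in Pme with 608.7, Cyp2j9 and Cyp4x1 in Brain, Cyp2s1 in SK7_ESC, Cyp4f16 in Pme and the remaining 5 in Liver.

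Since hepatocytes arise from endoderm, Liver was also set beside End. Of the 54 members, 30 (55.6%) were higher in Liver than in End, beside 11.3% of all genes. Lower were 0, beside 16.1% of all genes, but that call needs an End signal of at least 50, which 0 members had. The median log2 ratio was 2.10 over the members and 0.00 over all genes. Genes under background in both arrays enter these medians as 0.00 by the rule. The 30 are the 29 above and Cyp4b1. End had 0 of 15 hepatocyte markers above background. Of 22 measured regulators of P450 genes, 3 were higher in End than in SK7_ESC (beside 4.89% of all genes), all of them forkhead factors of endoderm, and 2 were lower (beside 3.81%). The lower ones were Arnt, the partner of the aryl hydrocarbon receptor, with 260.1 in SK7_ESC and 114.1 in End, and Cebpb, with 142.9 and 54.8. Foxa1 had 14.6 in SK7_ESC, 828.1 in End and 208.3 in Liver, and Foxa2 had 16.5, 958.2 and 182.9, so that both were lower in Liver than in End. Foxa3 had 8.8, 173.6 and 383.2. Hnf4a, a nuclear receptor that binds many hepatic P450 promoters, had 13.4 in SK7_ESC, 86.8 in End and 1053.7 in Liver. Cebpa, a further hepatic activator, had 11.3, 5.5 and 993.3, and the xenobiotic receptor Nr1i3 (CAR) had 1.3, 1.9 and 427.3.

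Among the adult tissues 12 of the 22 regulators were higher in Liver, beside 7.71% of all genes. They were Ahr, Nr1i3, Ppara, Rxra, Hnf4a, Foxa1, Foxa2, Foxa3, Cebpa, Nr1h4, Nr0b2 and Nr1h3. Hnf4a was at least 21.1-fold and Cebpa at least 19.9-fold higher. Nr1i2 (PXR), the receptor known for inducing Cyp3a11, had 68.0 in Liver, 3.9 in Brain and 10.9 in Sk_muscle, and its ratio of at least 1.36 was no call. Brain was higher for 1 regulator (Dbp, beside 10.9% of all genes) and Sk_muscle for 2 (Rxrg and Stat5b, beside 7.47%).

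Of 7 electron carriers and membrane partners of the enzymes, Por (P450 reductase) and Fdxr were not measured here. The other 5 were above background in every array and 4 were higher in Liver than in Brain and Sk_muscle, beside 7.71% of all genes. Cyb5a, cytochrome b5, had 7065.6 in Liver, 662.6 in Brain, 772.6 in Sk_muscle and 702.8 to 1225.5 in culture, which is 9.15-fold. Cyb5r3, its reductase, was 6.40-fold higher in Liver, Pgrmc1, a heme-binding partner of P450 enzymes, 3.06-fold and Cyb5b 2.34-fold. Fdx1, which serves mitochondrial P450 enzymes of other families, had 1303.6 in Liver and 1404.4 in Sk_muscle. Of 8 genes of heme synthesis, 7 were above background in SK7_ESC, Ect, End and Pme each. Higher in Liver were 2, Alad (4.21-fold) and Cpox (4.99-fold), beside 7.71% of all genes. Alas1, the rate-limiting enzyme of heme synthesis in liver, had 1479.9 in Liver beside 1263.6 in Sk_muscle and was not called.

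Members known for a sex bias in mouse liver were examined because the mice were male. Of 5 measured members known as female-biased, Cyp2b9, Cyp2b13, Cyp3a16 and Cyp3a44 were under background in Liver, with 24.0, 2.2, 0.6 and 25.4, and Cyp4a14 was above it with 279.8. The male-biased Cyp2d9 had 6073.6. There is no female sample, so no bias was measured. Of 12 measured members listed as also known from tissues other than liver, 4 were higher in Liver, beside 7.71% of all genes (Cyp2j6, Cyp2r1, Cyp4f13 and Cyp4v3). In Brain 1 was higher (Cyp2j9), beside 10.9% of all genes. Cyp2g1, Cyp4f18 and, by the probe set used, Cyp2u1 were under background in every array. A further probe set of Cyp2u1 had 68.0 in Liver.

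Within tandem arrays, called and uncalled genes lay side by side. In the Cyp2c array on chromosome 19, 10 of 14 RefSeq genes were measured and 7 were higher in Liver. The uncalled Cyp2c55 and Cyp2c65 are neighbours at one end, and the uncalled Cyp2c37 lies among called genes, next to Cyp2c54. In the Cyp2d array on chromosome 15, 4 of 7 measured genes were higher in Liver, and the uncalled Cyp2d12, Cyp2d34 and Cyp2d40 are consecutive, between Cyp2d9 and Cyp2d26. In the Cyp4f array on chromosome 17, 3 of 5 measured genes were called, and they are the consecutive Cyp4f15, Cyp4f14 and Cyp4f13. The Cyp3a array on chromosome 5 had the uncalled Cyp3a16 and Cyp3a44 followed by Cyp3a11 and Cyp3a25. The order is that of RefSeq (GRCm38.p6), and no position is drawn from it.

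Promoter windows of 300 bases, from 250 before to 50 after the start, were given by RefSeq for 43 of the 54 members (49 windows), of which 24 genes (29 windows) were higher in Liver and 19 (20 windows) were not. They held few CpG dinucleotides, with a median of 0.667 per 100 bases in the windows of genes higher in Liver and 1.0 in those of the other members, beside 2.33 in all 32851 windows. At least 5 per 100 bases were held by 2 windows (6.90%) of the first, 2 (10%) of the second and 34.6% of all. TATAAA was in 12 (41.4%) of the windows of genes higher in Liver, 6 (30.0%) of the other members and 13.6% of all. AGGTCA was in 8 (27.6%), 5 (25.0%) and 16.3%, GTTAAT (part of the site of HNF1) in 3 (10.3%), 0 and 7.10%, and GCGTG in 5 (17.2%), 7 (35.0%) and 32.4%. TTGCGCAA, a C/EBP site, was in 0 members' windows and 0.183% of all. Overlapping windows of the same gene, as in Cyp3a25, Cyp2j13 and Cyp4f14, were each counted. All motifs were searched on both strands, none contains another, and a match is a description of the letters and not a binding site. Low CpG and TATAAA were thus common to members on both sides of the Liver call.

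The HNF4 letters CAAAGTCCA were in 3 (10.3%) windows of genes higher in Liver, 2 (10%) of the other members and 0.475% of all. The 5 matches are shown, in capitals with 10 bases on each side, because in the same subfamilies they lie in genes that were called higher in Liver and in genes that were not.
Cyp2c68, chr19:39741160-39741188, - strand: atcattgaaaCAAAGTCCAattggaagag
Cyp2c70, chr19:40187332-40187360, - strand: aggtcaaactCAAAGTCCAaactctgtgt
Cyp2c65, chr19:39060880-39060908, + strand: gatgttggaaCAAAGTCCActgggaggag
Cyp3a11, chr5:145879945-145879973, - strand: aagagagtacCAAAGTCCAgtgatgcaaa
Cyp3a16, chr5:145469804-145469832, - strand: aagagacgacCAAAGTCCAggtgatgcag
Cyp3a11 and Cyp3a16, of the same tandem array, have the match 109 and 99 bases before their starts, and Cyp3a11 was called higher in Liver while Cyp3a16 was under background in every array. Cyp2c68 and Cyp2c70, with matches 77 and 64 bases before the start, were called, and Cyp2c65, with its match at 116, was under background in every array.

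The adult tissues carried the markers of their labels. All 15 hepatocyte genes were higher in Liver, 8 of 8 neuronal and 5 of 6 glial genes in Brain and 8 of 8 muscle genes in Sk_muscle. The cultures were not checked in this way. In SK7_ESC 2 of 8 muscle genes were above background (Mylpf with 662.9 and Actn3 with 99.0). So were 2 of 8 neuronal genes (Stmn2 with 1275.4 and Tubb3 with 116.3). Both shares were below the 44.4% of all genes above background in that array. For the 8 muscle genes the count was 0 in each germ layer. For the 8 neuronal genes it was 5 in Ect (beside 47.2% of all genes), 1 in Pme and 1 in End. Of 7 visceral endoderm genes, 3 were above background in SK7_ESC, 2 in Pme, 1 in Ect and 1 in End. The mean of each array without its highest and lowest 2% of probe sets was 100.0, the plain means lay between 141.2 and 204.2, and the medians between 15.6 and 25.0. By the probe set used for each gene, the 18 members under background in every array were Cyp1a1, Cyp2b9, Cyp2b13, Cyp2b19, Cyp2c37, Cyp2c55, Cyp2c65, Cyp2d12, Cyp2d34, Cyp2d40, Cyp2g1, Cyp2j11, Cyp2j13, Cyp2u1, Cyp3a16, Cyp3a44, Cyp4f18 and Cyp4f39, and the highest signal of these probe sets was 36.7, of Cyp2d34 in Liver.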

How the data were processed

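RNA of 7 samples was hybridized to Affymetrix mouse expression arrays, 1 array a sample. The authors normalized each array globally to an average signal of 100 and deposited linear intensity values of 45101 probe sets. How probes were summarised is not stated in the methods or labels, and labels and methods name different RNA kits. Global scaling to a mean can shift signals where few genes carry much of the RNA. The platform annotation gave 34958 probe sets 1 symbol, 932 several and 9211 none. For each of 18194 genes the probe set brightest on average over the arrays on the log2 scale was used (signals under 1 set to 1). The 54 members had 67 probe sets, and 11 had more than 1. In 6 the probe set used is marked as possibly matching several transcripts. All 54 matched RefSeq (GRCm38.p6) by Entrez identifier, and 0 symbols changed.

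Background was 50 and a call needed a ratio of 2. Members with full values are those above background outside Liver and at most 15 with the largest Liver ratios. Members, marker lists and rules were chosen with earlier results of these data known. The calling rule was run on simulated data with an assumed noise. Its planted changes were in bright genes only, so it does not test calls of genes near background. Alternatives were a background of 20 or 100, a ratio of 3, quantile normalization, scaling to equal medians, the geometric mean over probe sets and leaving out probe sets marked as shared. The probe set with the highest signal in any array was added after seeing the data. The number of arrays limits the precision. Protein sequences were not analysed here. Python 3.11.15 with numpy 2.4.6, pandas 2.3.3 and matplotlib 3.10.9 was used.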

Additional observations from a re-analysis of the deposited data

Results flagged for a closer look

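Signals above background, outside the values used for the 54 members, were seen in 4 places. A probe set annotated to both Cyp4a31 and Cyp4a10 had 843.5 in Liver and at most 9.2 in the other arrays, while the probe set of Cyp4a31 alone had 61.3 in Liver. A probe set annotated to Cyp4f37 and Cyp4f16 had 54.3 in Pme, its brightest array, as Pme was for Cyp4f16 itself. A further probe set of Cyp2u1, a fatty acid hydroxylase, had 68.0 in Liver, while the one used for the gene had 20.4. Cyp4a12a, a fatty acid hydroxylase whose symbol ends in a further letter and is therefore no member, had 3120.3 in Liver and at most 3.8 elsewhere.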

How the results depend on the processing

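Across the alternatives the number of members higher in Liver than in Brain and Sk_muscle stayed between 26 and 29 (26 of 49 when probe sets marked as shared were left out), while the share of all genes called was 5.42% to 9.14%. The number higher in Liver than in End was 27 to 32. Cyp2j6 and Cyp2r1 were not called with a background of 100 (1.11 and 1.44) or a ratio of 3 (2.12 and 2.87). With a background of 20, the members above background were 3 in SK7_ESC, 2 in Ect, 3 in End, 6 in Pme, 10 in Brain and 14 in Sk_muscle, 3 were higher in Brain (Cyp2j9, Cyp2s1 and Cyp4x1), 1 in Sk_muscle (Cyp1b1), 1 was lower than in SK7_ESC in each germ layer (Cyp2s1), and 1 was lower in Liver than in End (Cyp1b1). With a background of 100, the members above it were 0 in SK7_ESC, 1 in Pme, 1 in Brain and 2 in Sk_muscle. Quantile normalization gave 2 in SK7_ESC, and equal medians 3 in SK7_ESC and 1 in End. With the geometric mean of probe sets, 0 were above background in Ect and 1 in Pme, and 0 were higher than SK7_ESC in Ect or in Pme, since a dim probe set of Cyp1b1 enters its value, and the Liver ratio of Cyp2d22 was 6.97. Ratios that are lower bounds move with the background by construction. The other 121 counts stayed close to the main ones, and 247 ratios of single genes kept their call. No paired analysis was possible because each group has 1 array, and for the same reason no replicate could be left out. Signals near background limit the calls outside Liver.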

Other observations

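P450 genes of the other families, most of which serve the synthesis or breakdown of sterols, bile acids, retinoids and vitamin D, were also examined. Of 17 measured, 6 were higher in Liver than in Brain and Sk_muscle, beside 7.71% of all genes. They were the bile acid and sterol enzymes Cyp7b1 (30.1-fold, with 6906.6 in Liver and 229.3 in Brain), Cyp8b1 (at least 17.2-fold, 861.9 in Liver), Cyp39a1 (at least 8.13-fold, 406.3) and Cyp27a1 (6.88-fold, 3217.1), the retinoic acid hydroxylase Cyp26a1 (at least 17.2-fold, 860.7) and Cyp20a1 (2.29-fold, 336.5). Cyp46a1, which hydroxylates cholesterol in neurons, had 498.5 in Brain and 32.6 in Liver.

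Against SK7_ESC, 4 of the 17 were called higher in culture, namely 2 in Pme (beside 6.75% of all genes), 2 in End (beside 4.89%) and 1 in Ect (beside 6.63%), with 1 gene counted in both End and Pme. The Cyp26a1 signals were 13.7 (SK7_ESC), 66.6 (Ect), 3322.5 (End) and 122.8 (Pme), and the gene was called higher in End and Pme. Cyp51, the lanosterol demethylase of cholesterol synthesis, had 407.9 in SK7_ESC and 856.0 in End (2.10-fold). Cyp39a1 had 17.1 in SK7_ESC and 120.7 in Pme, and Cyp26b1, which like Cyp26a1 breaks down retinoic acid, had 18.3 in SK7_ESC and 127.0 in Ect. These comparisons share the SK7_ESC array.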
